A study of Mus musculus with 23 samples.

Results

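The transcription factors that hold gut epithelium to its intestinal identity are Hnf4a, Hnf4g, Cdx1, Cdx2, Gata6, Foxa2 and Foxa3. They were chosen by gene symbol, and each symbol named 1 locus, which gave 7 of the 24917 loci counted in the colonic epithelium of aged mice. Male mice, C57BL/6 by the sample labels and C57BL/6J by the study's methods, entered the study at 6 weeks of age. They were kept on their regimen for 43 weeks. Control (LF) mice ate a diet with 10% fat throughout, obese (HF) mice ate a diet with 60% fat throughout, and weight-loss (HF-LF) mice ate the 60% diet for 15 weeks and then the 10% diet for 28 weeks. Epithelium was taken from the whole colon, and its total RNA was sequenced after removal of ribosomal RNA. The 23 samples carry a batch label, with 4 LF, 3 HF and 4 HF-LF samples in batch 1 and 4 LF, 3 HF and 5 HF-LF samples in batch 2. The study names 5 mice for each regimen. Counted over both labels there are 8 samples on the LF regimen, 6 on HF and 9 on HF-LF, and whether all 23 come from separate mice is unknown.

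HNF4A and HNF4G are nuclear receptors that keep enhancers of absorptive cells active, and CDX1 and CDX2 are homeobox proteins that set the intestine apart from the stomach and are needed for intestinal fate. GATA6 is a zinc finger factor active in crypt cells along the gut, while its relative GATA4 belongs to the small intestine above the ileum. FOXA2 and FOXA3 are forkhead proteins of the gut endoderm that can bind closed chromatin, and FOXA2 acts with FOXA1 in goblet and enteroendocrine cells.

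In these samples all 7 factors were present in every library, and the diets differed little in them. Gata6 was lower in every HF sample than in any LF sample of the same batch. Between these diets 13.7% of all genes in batch 1 and 27.3% in batch 2 did not overlap. Hnf4g was higher on average in HF-LF than in HF samples, with an adjusted p that rose above 0.05 without 1 HF library. By the rule for calling a gene, none of the 7 was called between diets by edgeR.

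Between 29189922 and 46498521 reads per sample fell on genes in batch 1, and between 31607019 and 65320947 in batch 2. A floor of 3 counts lies between 0.0459 and 0.103 CPM (counts relative to depth) at these depths, before the scaling for library composition that the CPM of genes below include. The factor with fewest reads, Foxa2, had between 804 and 1968 counts per sample, and Hnf4a had between 28463 and 62991. PCR reads without molecular identifiers are not independent molecules, so such floors cover counting error only.

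The tissue label was compared with fixed marker lists. All 5 epithelial markers were present, with summed levels between 10330 and 14510 CPM, and Krt8 was the most abundant (median 5693 CPM). The 6 goblet markers summed to between 16480 and 41830 CPM, led by Muc2, and the 6 colonocyte markers to between 4795 and 13020 CPM, led by Car1. By contrast, 7 of 8 immune markers were in the file and summed to between 15.1 and 30.2 CPM, and 6 markers of stroma and muscle to between 1.61 and 71.7 CPM. The 5 small intestine markers summed to between 18.7 and 155 CPM. Of these the Paneth cell gene Defa24 was at 0 in every sample, Gata4 at most at 1.15 CPM and Lct at most at 0.512 CPM. Rbp2 (6.53 to 15.1 CPM) and Fabp6 (2.41 to 142 CPM) were present, and Fabp6 was uneven across groups. Its mean was 16.2 CPM in HF against 10.3 CPM in LF samples of batch 1, and 80.5 (SD 55.2) against 36.0 CPM in batch 2. The distal colon marker Hoxb13 (155 to 295 CPM) and the proximal colon marker Hao2 (310 to 523 CPM) were both present, as in epithelium from the whole colon. One library stood apart in these checks. HF sample 3 of batch 1 had the lowest sums of goblet, stromal, endothelial and proximal colon markers and of markers of nerve and glia, and the highest sum of proliferation markers (486 CPM).

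Per kilobase of annotated exon, Hnf4a stood first among the factors, with a median of 192 CPM per kb over the 23 samples (178 to 222). Cdx1 followed at 162 CPM per kb (144 to 181), a range that overlaps that of Hnf4a, and Cdx2 at 98.5 CPM per kb (74.7 to 127) lay below both without overlap. Foxa3 (median 29.3 CPM per kb) and Hnf4g (24.4 CPM per kb) formed a middle pair whose ranges overlap, so the receptor Hnf4a was far above its paralogue. Foxa2 (12.4 CPM per kb) and Gata6 (10.3 CPM per kb) came last with overlapping ranges. The order of this last pair depended on the length used, since Gata6 (17.7 CPM per kb) stood above Foxa2 (13.8 CPM per kb) when only the longest transcript was counted. On the first scale the relatives of the foregut and small intestine were far lower, with Gata4 at a median of 0.167 CPM per kb, the duodenal and pancreatic factor Pdx1 at 0.241 CPM per kb, and the gastric and esophageal factor Sox2 at 0.

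Hnf4a was also among the least variable of the genes above 20 CPM. The SD of its log2 CPM within groups was 0.0573, and only 1.77% of the 7558 genes above 20 CPM had a smaller one. Gata6 (SD 0.0765) and Cdx1 (SD 0.0779) were nearly as even, against a median of 0.131 over those genes. Foxa3 was the least even of the factors (SD 0.205), and 84.9% of those genes had a smaller SD. From its lowest to its highest sample Hnf4a spanned a ratio of 1.24 and Foxa3 a ratio of 1.99. Relative counting error is larger in genes with fewer reads and enters each SD, and genes of like level were not compared.

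**Figure D1:**
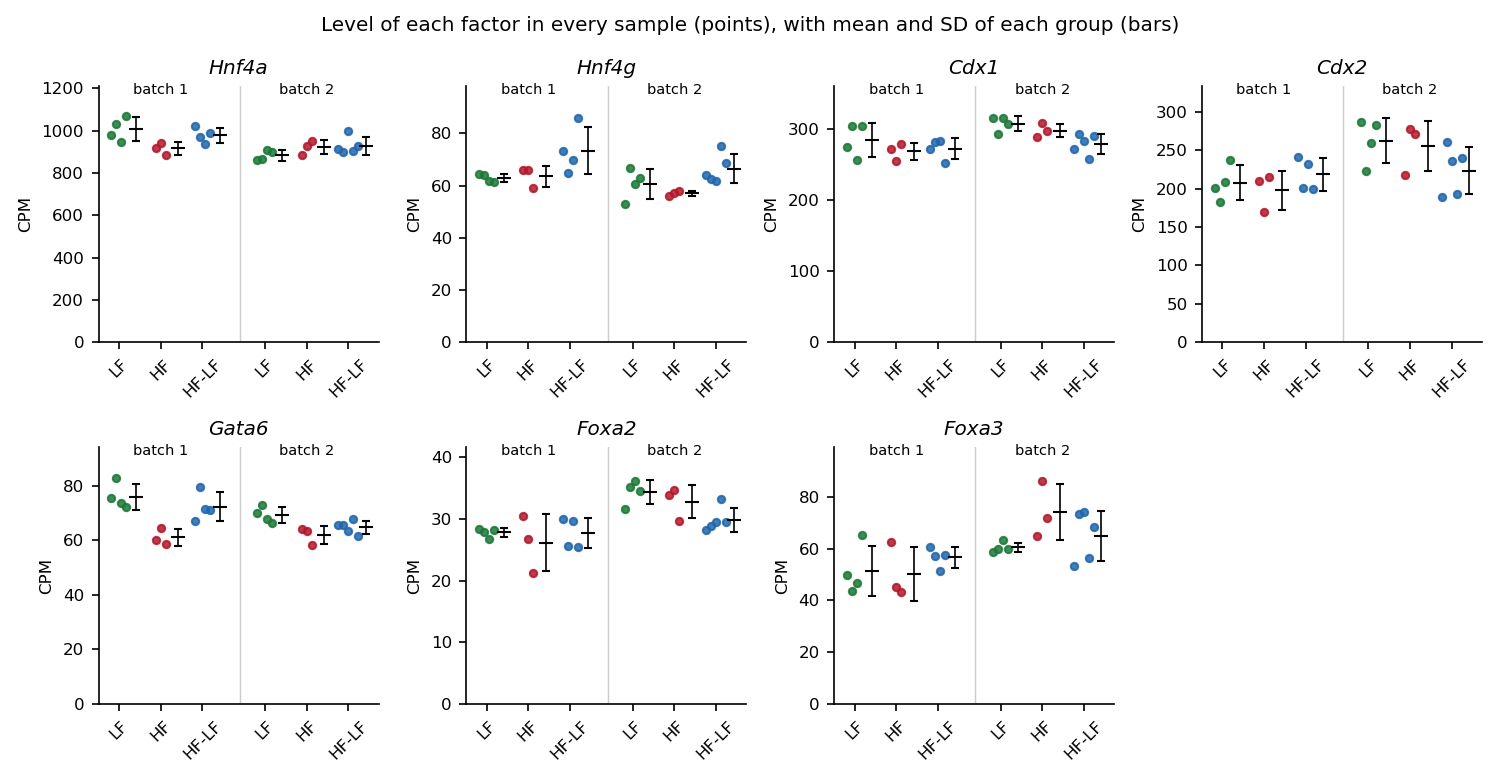
CPM of the 7 factors in each of the 23 samples, by diet and batch, with the mean and SD of each group beside the points. The Gata6 points of the HF groups lie below those of the LF groups in both batches, and the Hnf4a points span less of their axis than the Foxa3 points.

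In obese mice, Gata6 was the only factor of the 7 that did not overlap with controls in either batch. Among all genes 13.7% did not overlap in batch 1 and 27.3% in batch 2, and the share in both was not counted. Gata6 RNA was lower in all 6 HF samples than in any LF sample of the same batch. Its mean was 61.0 ± 3.03 CPM (SD, n = 3) against 76.0 ± 4.74 CPM (SD, n = 4) in batch 1. In batch 2 it was 62.0 ± 3.18 CPM (SD, n = 3) against 69.3 ± 2.82 CPM (SD, n = 4). Hnf4a, the most abundant factor per kilobase, was a little lower than in controls in batch 1 and a little higher in batch 2. The HF and LF values of the CDX factors overlapped in each batch, and those of Foxa3 overlapped in batch 1 and not in batch 2.

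A gene was called when its adjusted p in edgeR was under 0.05 and its fold change above 1.2 either way, which is 0.263 on the log2 scale. By this rule 0 of the 7 factors were called between HF and LF mice in batch 1, where 0% of 14428 genes were called. An unadjusted p under 0.05 was found for 3198 genes, of which 1, Gata6, was a factor. DESeq2 called 478 genes and limma's voom with sample weights 2422 in the same samples, and each of these tools called 1 factor, Gata6. In batch 2 edgeR called 0 of the 7 factors where 7.44% of genes were called, and in both batches fitted together 0 of 7 where 18.1% were called. In these fits 2 factors in batch 2, Gata6 and Foxa3, and 1 in both batches, Gata6, had an unadjusted p under 0.05. The same held for 4761 and 6058 genes. DESeq2 and voom called 0 factors in either, where DESeq2 called 1856 and 2795 genes and voom 1991 and 2824. Without a minimum fold change, 1 of 7 factors passed in both batches, where 28.4% of genes passed. The median log2 difference of the 7 factors was −0.09 in batch 1, −0.05 in batch 2 and −0.06 in both, against −0.0038, −0.01 and −0.0080 over all genes tested.

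In batch 1 Hnf4a was at 981, 1033, 944 and 1070 CPM in LF and at 919, 943 and 883 CPM in HF samples. In batch 2 it stood at 860, 864, 908 and 897 CPM in LF and at 884, 928 and 952 CPM in HF samples. The HF values lay below all LF values in batch 1, with HF sample 2 just under LF sample 3, and in batch 2 they reached from inside the LF range to above it. The log2 difference was −0.14 (SE 0.0890, adjusted p = 0.343) in batch 1, +0.06 (SE 0.0633, adjusted p = 0.504) in batch 2 and −0.04 in both, with a 95% interval from −0.14 to 0.06 that lies inside a fold change of 1.2 either way. A test of the difference between the batches gave 0.20 on the log2 scale (SE 0.0937, adjusted p = 0.747). Hnf4g ranged from 59.0 to 65.9 CPM in HF and from 61.5 to 64.3 CPM in LF samples of batch 1, with a log2 difference over both batches of −0.04 (95% interval −0.16 to 0.09).

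The homeobox pair gave the same picture. Cdx1, with 255 to 279 CPM in HF and 256 to 305 CPM in LF samples of batch 1, differed over both batches by −0.07 on the log2 scale (95% interval −0.17 to 0.04). Cdx2 overlapped between the diets in each batch and differed by −0.06 (95% interval −0.25 to 0.14), which also lies inside a fold change of 1.2. CDX1 and CDX2 are partly redundant in the colon, and neither gene passed at an unadjusted p under 0.05 in this comparison.

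In batch 1 Gata6 was at 75.5, 82.8, 73.7 and 72.1 CPM in LF and at 60.1, 64.4 and 58.6 CPM in HF samples. In batch 2 it was at 70.1, 72.9, 68.0 and 66.4 CPM in LF and at 64.0, 63.6 and 58.3 CPM in HF samples. The HF and LF values did not overlap in either batch, and the gap between them was wider in batch 1. Between HF and LF mice the groups of 2 of 7 factors, Hnf4a and Gata6, did not overlap in batch 1, as for 13.7% of genes, and in batch 2 those of 2 of 7, Gata6 and Foxa3, as for 27.3%. The log2 difference of Gata6 was −0.32 (SE 0.0870, adjusted p = 0.155) in batch 1 and −0.16 (SE 0.0566, adjusted p = 0.0740) in batch 2. Over both batches it was −0.24 (SE 0.0491, 95% interval −0.34 to −0.14, adjusted p = 0.00464), a fold change of 1.18 that passed on the adjusted p and lay under the minimum fold. The difference between the batches was 0.15 on the log2 scale (SE 0.0932, adjusted p = 0.824).

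Several values moved with Gata6, and their part in its difference was not tested. The median HF library was deeper, with 46450956 against 35830760 reads in batch 1 and 45973207 against 38794500 reads in batch 2, though HF sample 2 of each batch (31816330 and 39781396 reads) lay within the LF range. In batch 1 the 4 proliferation markers summed to 327, 276 and 486 CPM in HF mice against 185, 175, 350 and 173 CPM in LF, while in batch 2 they summed to 402, 440 and 359 CPM against 438, 367, 392 and 350 CPM. Over both batches all 6 stroma and muscle markers were lower in HF than in LF mice, with a median of −1.22 on the log2 scale, −0.07 in batch 1 and −1.88 in batch 2, and 1 of the 6 was called. Their sum and Gata6 had r = 0.430 over the 23 samples (0.385 and 0.545 in the batches, and 0.241 without the 2 farthest samples). In bulk epithelium, fewer cells with a transcript and less of it per cell cannot be told apart. The counted locus of Gata6 lies on chromosome 18 from 11052510 to 11085635 (mm10). It shares only its first bases, up to 11052567, with the locus 1010001N08Rik of the opposite strand, which begins at 11042037. The counts of that whole locus were 7.20% to 11.6% of those of Gata6, and the part of them in the shared bases is not known. Whether strand was used in counting was not found in the text read here, so reads of the pair cannot be told apart in those shared bases. Without HF sample 3 of batch 1 the log2 difference of Gata6 over both batches was −0.20 (adjusted p = 0.0182), and in batch 1 it passed both thresholds without HF sample 2 (−0.36, adjusted p = 0.0473).

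Foxa3 was at 58.8, 60.0, 63.2 and 59.7 CPM in the LF samples of batch 2 and at 64.9, 86.2 and 71.6 CPM in the HF samples. All HF values exceeded the LF values there, with HF sample 2 far above the rest, whereas in batch 1 the groups overlapped. The log2 difference was 0.30 (SE 0.114, adjusted p = 0.0948) in batch 2 and −0.03 (SE 0.148, adjusted p = 0.904) in batch 1, and the difference between the batches was 0.33 (SE 0.200, adjusted p = 0.828). Foxa2 overlapped between the diets in both batches, at −0.08 on the log2 scale in both (95% interval −0.23 to 0.07). The interval of Foxa3 over both batches, from −0.07 to 0.35, reached beyond a fold change of 1.2, whereas those of Hnf4a, Hnf4g, Cdx1, Cdx2 and Foxa2 stayed inside it.

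**Figure D2:**
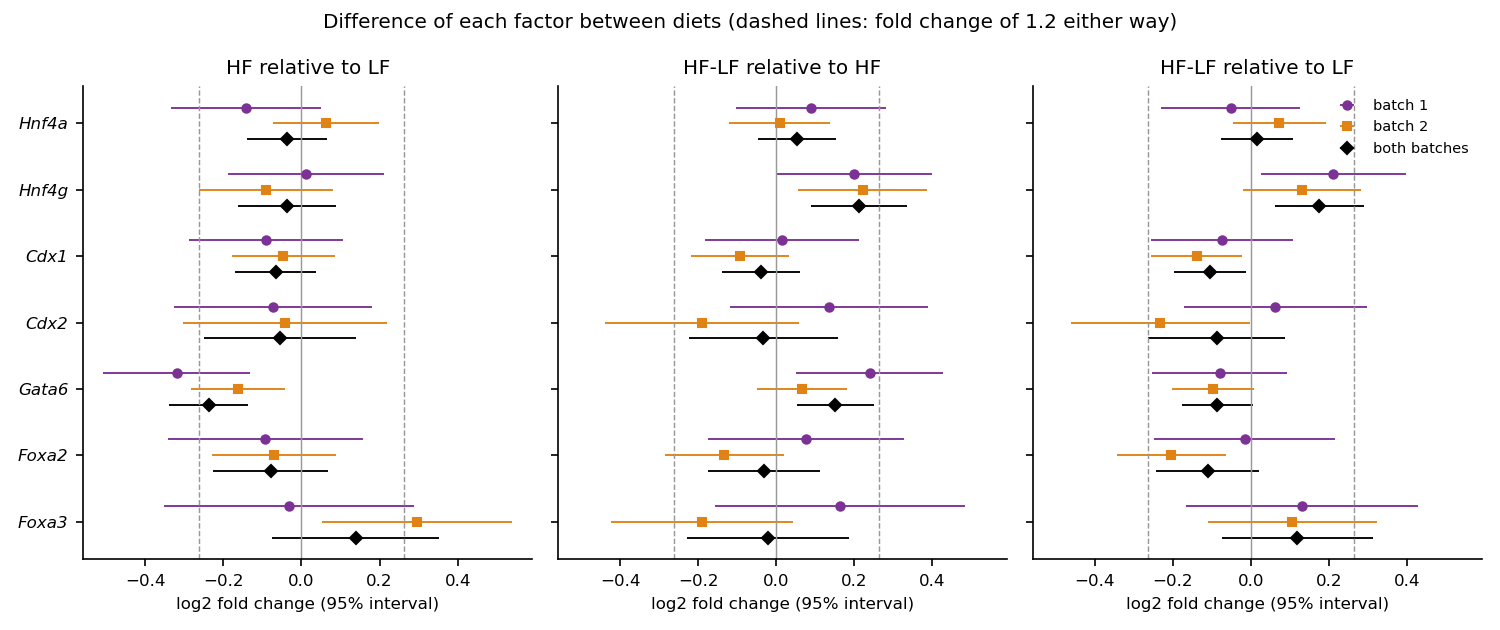
Log2 fold change of each factor with its 95% interval in batch 1, in batch 2 and in both batches fitted together, for the 3 comparisons of diets. Gata6 lies left of 0 between HF and LF in each fit, the Hnf4g points lie right of 0 between HF-LF and HF in each fit, with an interval that reaches 0 in batch 1, and most intervals of the other factors cross 0.

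Other factors of epithelial identity were also tested. Of 24 such factors fixed as a list, 23 were tested, and over both batches 6 fell in HF mice and 1 rose, where 18.1% of all genes were called. Among those that fell were Klf4 (−0.34, adjusted p = 0.00263), a factor of terminal differentiation, Klf5 (−0.34, adjusted p = 0.00498), a factor of crypt cells, the vitamin D receptor gene Vdr (−0.36, adjusted p = 0.00823) and the Wnt effector Tcf7l2 (−0.30, adjusted p = 0.0325). Creb3l3, a membrane-bound factor of lipid metabolism, rose by 1.07 on the log2 scale (SE 0.236, adjusted p = 0.00573). The median over the 23 was −0.19, with 17 below 0, beside −0.0080 over all genes. Foxa1, the forkhead relative of Foxa2 and Foxa3, passed on the adjusted p with −0.18 (adjusted p = 0.0183), under the minimum fold. Isx, an intestinal homeobox factor, differed by −0.24 (adjusted p = 0.0642) and Gata4 by 0.13 (adjusted p = 0.717).

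Klf4 is shown sample by sample, as the gene of lowest adjusted p in the list over both batches and not as a typical one. In batch 1 it was at 825, 909, 868 and 725 CPM in LF and at 587, 647 and 622 CPM in HF samples, and it was at 608.1, 701.5, 723 and 681 CPM against 582, 607.5 and 522 CPM in batch 2. The groups did not overlap in either batch, as for 13.7% of all genes in batch 1 and 27.3% in batch 2. In batch 2 LF sample 1 lay only just above HF sample 2. Within batch 1 edgeR called 0 of the 23 factors of the list, with 9 at an unadjusted p under 0.05, while DESeq2 called 3 and voom 5, beside 3198 of 14428 genes at that p and 478 and 2422 genes called by these tools. Within batch 2 edgeR called 5, among them Creb3l3, which was higher, and Klf5, Vdr and Sox9, which were lower, and DESeq2 and voom 8 each, where 7.44% of all genes were called by edgeR and 1856 and 1991 genes by the other tools. The batch 1 count was 6 without HF sample 2, and the batch 2 count went from 0 to 7 as single samples were left out. Calls over all genes also moved with the sample left out, as given below. Without HF sample 3 of batch 1 the count over both batches was 5, and Tcf7l2 (−0.29, adjusted p = 0.0637) was among those no longer called.

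The genes that CDX2 or HNF4 factors are known to maintain went both ways. Of 20 listed, 19 were tested, and over both batches edgeR called 2 higher and 0 lower in HF mice, where 18.1% of all genes were called. Their median was 0.04, with 12 higher and 7 lower, from −0.25 to 0.69, and 6 had an unadjusted p under 0.05. The lowest, Myo7b, passed on the adjusted p (0.0143) under the minimum fold. Cdh17, an intestinal cadherin and a classical CDX2 target, rose by 0.38 on the log2 scale (adjusted p = 0.0123), and Tmigd1, a brush border adhesion gene, by 0.69 (adjusted p = 0.0272). Neither call was kept without HF sample 3 of batch 1, where Cdh17 reached 1788 CPM and Tmigd1 311 CPM. Without that sample the differences were 0.25 (adjusted p = 0.0360) and 0.30 (adjusted p = 0.168) and 0 of the 19 were called. Calls over all genes fell too, as given below. Vil1, which encodes the brush border protein villin, differed by 0.04 (95% interval −0.07 to 0.15). Within each batch edgeR called 0 of the 19, where 0% of genes were called in batch 1 and 7.44% in batch 2. At an unadjusted p under 0.05 there were 5 in each, beside 3198 of 14428 and 4761 of 14377 genes. DESeq2 called 0 in batch 1 and 1 in batch 2, beside 478 and 1856 genes. With voom 4 and 2 were called, beside 2422 and 1991 genes.

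Posterior Hox genes, which mark position along the gut, showed no call by edgeR. Of 13 listed, 11 were tested, and 0 were called between HF and LF mice over both batches, where 18.1% of all genes were called. At an unadjusted p under 0.05 there was 1, beside 6058 of 14385 genes. DESeq2 called 0 of the 11 and voom 1, beside 2795 and 2824 genes over all. Their median was −0.12, with 2 higher and 9 lower, beside −0.0080 over all genes. Hoxb13, a gene of the distal colon, differed by 0.05 (95% interval −0.17 to 0.26).

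The return to a low-fat diet was examined by setting HF-LF against HF samples. Hnf4g stood out here, higher in the HF-LF samples, by 0.21 on the log2 scale over both batches (SE 0.0598, 95% interval 0.09 to 0.34, adjusted p = 0.0234, 9 against 6 samples). Gata6 was also higher, by 0.15 (SE 0.0478, 95% interval 0.05 to 0.25, adjusted p = 0.0359). These values share the HF samples with the comparison of HF and LF, so a low value in the HF samples enters both. Over both batches all 6 stroma and muscle markers were also higher in HF-LF than in HF samples, with a median of 1.23 on the log2 scale, 3 at an unadjusted p under 0.05 and 0 called by edgeR, and their part in these differences was not tested. The 2 tested endothelial markers and the 1 tested marker of nerve and glia were higher too, with 1 of each at that p and 0 called. Hnf4a, Cdx1, Cdx2, Foxa2 and Foxa3 differed by at most 0.05 in size over both batches, and their intervals all lay inside a fold change of 1.2.

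By the call rule none of the 7 passed. In batch 1 the count was 0 of 7 where 0.00693% of genes were called, in batch 2 it was 0 of 7 where 14.5% were called, and over both batches it was 0 of 7 where 10.3% were called, all by edgeR. At an unadjusted p under 0.05 there was 1 factor in batch 1, Gata6, 1 in batch 2, Hnf4g, and both over both batches. Beside them stood 1566 of 14428, 5493 of 14377 and 5157 of 14385 genes at that p. DESeq2 and voom called 0 factors in each fit. Over all genes DESeq2 called 14, 2452 and 1767 in these fits and voom 2, 2081 and 1870. Without a minimum fold change 2 of 7 factors passed over both batches, where 16.5% of genes passed. The median of the 7 was 0.14 in batch 1, −0.09 in batch 2 and −0.02 in both, beside −0.0033, 0.01 and 0.01 over all genes.

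In batch 1 Hnf4g was at 65.9, 65.9 and 59.0 CPM in HF and at 73.2, 64.7, 69.8 and 86.0 CPM in HF-LF samples. In batch 2 it was at 56.0, 57.2 and 57.9 CPM in HF and at 64.2, 62.5, 61.8, 75.3 and 68.7 CPM in HF-LF samples. All 5 HF-LF samples of batch 2 exceeded the HF samples, while in batch 1 HF-LF sample 2 fell within the HF range, and HF-LF sample 4 was the highest of its group in each batch. Of the 7 factors 1 did not overlap between HF-LF and HF in batch 1, Gata6, as for 7.94% of genes, and 1 in batch 2, Hnf4g, as for 27.0%. The log2 difference of Hnf4g was 0.20 (SE 0.0927, adjusted p = 0.461) in batch 1 and 0.22 (SE 0.0772, adjusted p = 0.0558) in batch 2, with a difference between the batches of 0.01 (SE 0.122). The HF-LF values of its paralogue Hnf4a ranged from 937 to 1021 CPM in batch 1 and from 898 to 998 CPM in batch 2 and overlapped the HF values in both.

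Gata6 was at 67.1, 79.6, 71.6 and 71.2 CPM in the HF-LF samples of batch 1, all above the HF samples of 58.6 to 64.4 CPM. In batch 2 it was at 65.8, 65.5, 63.3, 67.8 and 61.7 CPM, and there the HF values of 58.3 to 64.0 CPM overlapped them. The log2 difference was 0.24 (SE 0.0869, adjusted p = 0.412) in batch 1 and 0.07 (SE 0.0541, adjusted p = 0.389) in batch 2. The adjusted p of both genes over both batches did not stay under 0.05 without 1 library, HF sample 3 of batch 1, and was then 0.0711 for Hnf4g (0.18 on the log2 scale) and 0.138 for Gata6 (0.11 on the log2 scale). For Gata6 it was also above 0.05 when no gene was removed for low counts (0.0798) and when the HF-LF and HF samples were fitted alone (0.0770). HF sample 3 of batch 1 held the lowest value of its group for both genes.

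In edgeR Cdx1, Cdx2, Foxa2 and Foxa3 were all above 0 in batch 1 and below 0 in batch 2, but voom gave −0.013 for Cdx1, −0.083 for Foxa2 and −0.038 for Foxa3 in batch 1. Cdx2 differed by 0.14 (SE 0.117) in batch 1 and by −0.19 (SE 0.116) in batch 2, and Foxa3 by 0.16 (SE 0.148) and −0.19 (SE 0.109), with adjusted p of 0.211 or above for both genes. The test of the difference between batches gave −0.33 (SE 0.174, adjusted p = 0.645) for Cdx2 and −0.36 (SE 0.195, adjusted p = 0.645) for Foxa3. Foxa2 was at 0.08 and −0.13 and Cdx1 at 0.01 and −0.09 in the batches. Over both batches Cdx1 differed by −0.04 (95% interval −0.14 to 0.06) and Foxa2 by −0.03 (95% interval −0.17 to 0.11).

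In the identity list, Vdr (0.32, adjusted p = 0.0223) and Tcf7l2 (0.35, adjusted p = 0.0243) were among 3 that rose from HF to HF-LF mice over both batches, and Creb3l3 fell by 0.86 on the log2 scale (adjusted p = 0.0195), where 10.3% of all genes were called. The median over the 23 tested was 0.14, beside 0.01 over all genes. Foxa1 was higher by 0.19 (adjusted p = 0.0219), under the minimum fold. Without HF sample 3 of batch 1, 0 of the 23 were called, with adjusted p of 0.0741 for Vdr, 0.0570 for Tcf7l2 and 0.0564 for Creb3l3. Calls over all genes fell as well without that sample, as given below. In batch 2 alone 4 were called, all higher and Tcf7l2 and Vdr among them, where 14.5% of all genes were called, and 0 without HF sample 2 of that batch. In batch 1 alone edgeR called 0, with 6 at an unadjusted p under 0.05, beside 1 gene called and 1566 of 14428 at that p. DESeq2 and voom called 0 there, beside 14 and 2 genes. Among the genes maintained by CDX2 or HNF4 factors 1 of 19 was called over both batches, with 9 higher and 10 lower and a median of −0.02. This was the disaccharidase gene Sis, which fell by 0.43 on the log2 scale (adjusted p = 0.0338), which became −0.46 (adjusted p = 0.0548) without HF sample 3 of batch 1. It also fell in batch 2, by 0.57, and was at −0.27 in batch 1 (adjusted p = 0.596). Among the 11 tested posterior Hox genes edgeR, DESeq2 and voom called 0, with 1, Hoxb13, at an unadjusted p under 0.05 (−0.21, adjusted p = 0.131).

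Between HF-LF and LF mice, 28 weeks after the change of diet, none of the 7 factors was called. The 95% intervals over both batches lay inside a fold change of 1.2 for Hnf4a, Cdx1, Gata6 and Foxa2, and reached beyond it for Hnf4g, Cdx2 and Foxa3. Hnf4g was higher in HF-LF samples by 0.17 on the log2 scale over both batches (95% interval 0.06 to 0.29, adjusted p = 0.980), and Cdx1 differed by −0.11 (95% interval −0.20 to −0.01, adjusted p = 0.980). Gata6 differed by −0.09 (95% interval −0.18 to 0.0041).

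By edgeR 0 of the 7 factors were called between HF-LF and LF mice in batch 1 (0% of genes), 0 in batch 2 (0.00696% of genes) and 0 over both batches (0% of genes). An unadjusted p under 0.05 was found for 763, 669 and 591 genes, among them 1 factor in batch 1 (Hnf4g), 3 in batch 2 (Cdx1, Cdx2 and Foxa2) and 2 over both batches (Hnf4g and Cdx1). DESeq2 called 4, 15 and 6 genes and voom 0, 0 and 4, with 0 factors among them. The median log2 difference of the 7 was −0.02, −0.10 and −0.09, beside 0.0016, 0.0049 and 0.0091 over all genes.

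The values of these factors show where the HF-LF samples lay. Hnf4g in the HF-LF samples of batch 1 exceeded the LF values of 61.5 to 64.3 CPM in each sample. The share of all genes without overlap is not given here for this comparison. In that batch 763 of 14428 genes had an unadjusted p under 0.05. In batch 2 the HF-LF values of Hnf4g overlapped the LF values of 53.0, 66.7, 60.6 and 62.7 CPM. Cdx1 in batch 2 was at 273, 293, 283, 259 and 291 CPM in HF-LF and at 316, 293, 316 and 307 CPM in LF samples, so that the groups met at 293 CPM, and its log2 difference was −0.14 (95% interval −0.26 to −0.02). Foxa2 in batch 2 was at 28.3, 28.9, 29.5, 33.2 and 29.5 CPM in HF-LF and at 31.6, 35.2, 36.3 and 34.5 CPM in LF samples. Its HF-LF samples lay below the LF samples but for sample 4, and the log2 difference was −0.20 (SE 0.0658, 95% interval −0.34 to −0.06, adjusted p = 0.958), against −0.02 (SE 0.107) in batch 1. Cdx2 in batch 2 differed by −0.23 (95% interval −0.46 to −0.0036) and in batch 1 by 0.06, and the difference between the batches was −0.31 (SE 0.160, adjusted p = 0.653). Of the identity list 0 of 23 were called by edgeR, DESeq2 or voom in batch 1, batch 2 or both, with 1, 2 and 2 at an unadjusted p under 0.05, and for the genes maintained by CDX2 or HNF4 factors and the posterior Hox genes the calls were also 0 by each tool.

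The batches were also compared at equal diet. All 7 factors had an unadjusted p under 0.05 between batch 2 and batch 1, as did 7268 of 14385 genes, and 1 factor was called, where 24.0% of genes were called. Foxa3 was the factor called, higher in batch 2 by 0.31 on the log2 scale (SE 0.0806, adjusted p = 0.00351). Foxa2 (0.23, adjusted p = 0.0015) and Cdx2 (0.23, adjusted p = 0.0152) were higher in batch 2 under the minimum fold, and Gata6 (−0.10, adjusted p = 0.0313) and Hnf4a (−0.09, adjusted p = 0.0490) were lower. Whether a diet acted differently in the batches was tested as an interaction, and 0 of the 7 factors were called for HF against LF (0% of genes), 0 for HF-LF against HF (0% of genes) and 0 for HF-LF against LF (0% of genes). At an unadjusted p under 0.05 these tests gave 943, 1105 and 1090 genes, with Hnf4a between HF and LF as the only factor in edgeR. DESeq2 called 0, 0 and 2 genes and had 1, 1 and 0 factors at an unadjusted p under 0.05. The labels do not say what sets the batches apart, and the part of the batch in the levels was not tested beyond this.

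Across the 23 samples, with the mean of each batch removed, the factors varied largely apart from one another. Of the 21 pairs, Cdx1 and Cdx2 were the most alike in log2 CPM (r = 0.626, rho = 0.593, and r = 0.725 without the 2 samples farthest from the median of Cdx1), with r = 0.305 in batch 1 and 0.882 in batch 2. Cdx2 and Foxa3 followed (r = 0.531, rho = 0.468, and 0.399 without the 2 farthest samples), at 0.573 and 0.515 in the batches. Hnf4g and Cdx1 ran against each other (r = −0.568, rho = −0.480), at −0.445 and −0.699 in the batches, and r was −0.302 without the 2 farthest samples. The HNF4 pair showed little relation (r = 0.146, rho = 0.142). These correlations describe samples that share diets and library scaling.

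Among all genes tested, those most like each factor across the samples were named as a description. For Gata6 they were the immediate early gene Junb (r = 0.899, rho = 0.856, and 0.849 without the 2 farthest samples), the antiproliferative gene Tob1 (r = 0.899) and Rusc2 (r = 0.896), and r of Junb was 0.923 in batch 1 and 0.869 in batch 2. For Foxa3 they included Atoh1, the factor that starts the secretory lineage (r = 0.799, rho = 0.836, and 0.764 without the 2 farthest samples), beside Nsfl1c and Zcchc17. For Cdx1 the first was the Notch target Nrarp (r = 0.835, rho = 0.750), followed by Ehd1 and 2510039O18Rik. For Hnf4g they were the lipid kinase gene Pik3ca (r = 0.833, rho = 0.780), Wac and 3110057O12Rik, for Hnf4a the chemokine gene Cx3cl1 (r = 0.759, rho = 0.631), Hsf5 and Tra2b, for Cdx2 Mpv17l2 (r = 0.793, rho = 0.780), Mettl7b and Hyal2, and for Foxa2 the glutathione transferase gene Gstt1 (r = 0.827, rho = 0.769), Dexi and Aldh2. With HF sample 3 of batch 1 among the 2 farthest samples, r between Foxa2 and Gstt1 was 0.708 without them.

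Set against the 14 marker lists, in 98 pairs of a factor and a list, the strongest relation over the 23 samples was at r = −0.581. That was Hnf4g with the small intestine markers (−0.503 and −0.658 in the batches), a list led by the ileal bile acid binding gene Fabp6. Cdx2 ran against the markers of nerve and glia (r = −0.571, with −0.434 and −0.687 in the batches), a list of few reads. Gata6 and the summed proliferation markers ran against each other in batch 1 (r = −0.698) and not in batch 2 (r = −0.0225), with r = −0.561 over both and −0.378 without the 2 farthest samples. Hnf4a ran against the summed stem cell markers (r = −0.579, with −0.472 and −0.772 in the batches, and −0.402 without the 2 farthest samples), a sum made up mostly of Slc12a2, and against the proliferation markers (r = −0.552). Foxa3 ran with the epithelial markers (r = 0.551, with 0.449 and 0.685).

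Identity factors are known to act on one another's genes, so RefSeq promoters (GRCm38.p6), the 250 bases before each listed start, were searched on both strands for short motifs. Of the 7 factors 4 have entries that were searched (Hnf4a, Cdx2, Foxa2 and Foxa3), and 3 were not searched. The motifs, with the share of 32851 promoters of this length that hold each, were CAAAGTCCA for HNF4 (0.384%), TTTATG for CDX (10.8%), AGATAA for GATA (9.99%) and TGTTTAC for FOXA (3.17%). Of 7 entries searched 3 held at least 1 motif. In the annotation 3 of 5 Hnf4a transcripts begin outside the counted locus, the farthest 40380 bases upstream at 163506808 on chromosome 2, and 310 of 4828 exon bases lie outside it.

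Cdx2 and Foxa3, which varied together across samples and stood higher in batch 2, are shown with the bases before their starts on chromosomes 5 and 7, each on the minus strand and without transcribed bases. Capitals mark a FOXA motif on the reverse strand, 40 bases before the listed start of Cdx2. The Foxa3 window held 0 of the motifs.
Cdx2 (chr5:147307271-147307499, GRCm38.p6, minus strand): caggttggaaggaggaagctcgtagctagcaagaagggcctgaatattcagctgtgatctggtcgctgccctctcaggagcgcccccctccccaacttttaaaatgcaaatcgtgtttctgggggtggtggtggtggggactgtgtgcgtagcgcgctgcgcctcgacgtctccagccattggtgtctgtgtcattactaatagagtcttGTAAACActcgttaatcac
Foxa3 (chr7:19023540-19023789, GRCm38.p6, minus strand): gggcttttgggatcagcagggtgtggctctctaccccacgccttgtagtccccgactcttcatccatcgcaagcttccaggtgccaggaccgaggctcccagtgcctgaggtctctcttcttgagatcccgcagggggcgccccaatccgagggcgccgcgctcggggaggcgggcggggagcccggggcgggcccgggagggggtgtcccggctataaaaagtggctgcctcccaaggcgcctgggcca
A match of this kind is a description of the sequence and not of binding.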

How the data were processed

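The authors trimmed read pairs with cutadapt 1.2.1, mapped them to mm10 with STAR 2.5 and deposited raw counts per gene locus from featureCounts 1.5.0-p1, without normalization. The gene annotation, the use of strand and the handling of reads with several hits were not found in the text read here.

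From these counts, edgeR 4.0.16 in R 4.3.3 was fitted with TMM scaling after filterByExpr. The fits of batch 1 tested 14428 genes, those of batch 2 tested 14377, and those of both, with a term for batch, 14385. The 3 diets shared 1 fit, and differences were tested with the quasi-likelihood F test and adjusted by Benjamini and Hochberg over all genes tested. Intervals are 95% and use the standard error of that test. CPM were scaled over all 23 samples, and correlations used log2 CPM less the batch means. On simulated counts each tool called most genes given a known change, fewer of those with a smaller change, and few others. The sizes of those changes and the spread of the simulated counts are not given here. The simulation therefore does not show the power to call differences as small as those of the factors between diets. Lengths came from the exons of GENCODE M21.

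Named genes were the 7 factors, called genes of fixed lists (at most 3 of lowest adjusted p per list and comparison, others being chosen after their values were seen), 6 list genes given whatever their values, overlapping loci, and the 3 genes most correlated with each factor. Some genes of the fixed lists and 1 fixed motif are not reported here, though counts over the lists include the genes. The factors and lists were chosen with earlier results of these data known. Alternatives were DESeq2 1.42.0, its size factors in edgeR, no filter, the compared diets alone, a term for samples of equal number, voom with sample weights (limma 3.58.1), no minimum fold and each sample left out. Both batches without HF sample 3 of batch 1 was added after seeing the data.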

Additional observations from a re-analysis of the deposited data

Results flagged for a closer look

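The level of each factor was checked for a sample far from the others in 28 groups of 4 or 5 samples, where chance picks out about 1 in 20, and 1 sample was found. Foxa2 stood at 33.2 CPM in HF-LF sample 4 of batch 2, where the other 4 samples lay between 28.3 and 29.5 CPM.

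Hnf4a leaned in opposite directions between HF and LF mice in the batches, a difference that did not pass the test when adjusted. All 3 HF samples lay below the LF mean in batch 1 and all 3 above it in batch 2. The log2 fold change differed by 0.20 from batch 1 to batch 2 (edgeR, SE 0.0937, adjusted p = 0.747), with an unadjusted p under 0.05, as for 943 of 14385 genes, and 0 genes were called.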

How the results depend on the processing

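Of the log2 fold changes of the 7 factors, 368 kept their direction and side of the thresholds under the other settings, 2 moved past the thresholds and 8 reversed. With 1 sample left out these numbers were 318, 1 and 17. The causes were not tested.

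Between HF and LF mice of batch 1, DESeq2 called 1 factor and voom 1, in each case Gata6 (adjusted p = 0.0397 and 0.0212, with 0.0212 to 0.191 over the alternatives), and with 1 sample left out the count of factors went from 0 to 1. Over all genes these tools gave 478 and 2422 calls there, where edgeR gave 0, the term for samples of equal number 92, and single samples left out 0 to 1352. In batch 2 the calls between HF and LF were 1069, by DESeq2 1856, by voom 1991 and with that term 2080, and 15 to 2560 with 1 sample left out. Without a minimum fold change 1 factor passed over both batches between HF and LF and 2 between HF-LF and HF. Without HF sample 3 of batch 1, a choice made after the data were seen, calls over both batches went from 2605 to 1591 genes between HF and LF and from 1488 to 501 between HF-LF and HF, with 0 factors in each.

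The reversed values were these. With the term for equal numbers Foxa3 between HF and LF in batch 1 was 0.027, and with voom it was 0.21 and Foxa2 0.058. Between HF-LF and HF in batch 1 voom gave −0.013 for Cdx1, −0.083 for Foxa2 and −0.038 for Foxa3. In batch 2 Hnf4a in that comparison was −0.0012 with DESeq2 and −0.0088 without the filter.

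With 1 sample left out, the log2 fold change between HF and LF in batch 1 ran from −0.015 to 0.068 for Hnf4g, −0.13 to 0.033 for Cdx2, −0.36 to −0.27 for Gata6, −0.22 to 0.043 for Foxa2 and −0.22 to 0.10 for Foxa3, and in batch 2 from −0.11 to 0.062 for Cdx2. Between HF-LF and HF it ran from −0.026 to 0.057 for Cdx1 and −0.058 to 0.21 for Foxa2 in batch 1 and from −0.031 to 0.033 for Hnf4a in batch 2, and between HF-LF and LF in batch 1 from −0.052 to 0.029 for Foxa2. The term for samples of equal number joined the diets within a batch and, over both batches, the same diet across batches (consensus correlation −0.102), and neither changed a call of a factor.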

Other observations

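Some markers of secretory and dividing cells were called by edgeR over both batches, where 18.1% of all genes were called between HF and LF and 10.3% between HF-LF and HF. Of 6 enteroendocrine markers, 3 rose in HF mice, the peptide hormone genes Gcg (0.80, adjusted p = 0.00219) and Pyy (0.44, adjusted p = 0.00176) and the processing enzyme gene Cpe (0.40, adjusted p = 0.0313). In HF-LF against HF mice Pyy fell by 0.52 (adjusted p = 0.000812) and Gcg by 0.48 (adjusted p = 0.0250, and 0.0606 without HF sample 3 of batch 1). Of 6 goblet markers, 3 rose in HF mice, Spink4 (0.96, adjusted p = 0.00642), Agr2 (0.58) and Tff3 (0.42), while the mucin gene Muc2 was at −0.31 (adjusted p = 0.154). Without HF sample 3 of batch 1 the goblet count between HF and LF was 3 and the enteroendocrine count 4.

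Of 4 proliferation markers, Cdk1 (0.70), Top2a (0.53) and Ccnb1 (0.61) rose in HF mice, and without HF sample 3 of batch 1 only Cdk1 was called (0.55, adjusted p = 0.0334). Among 5 stem cell markers Smoc2 rose (0.29, adjusted p = 0.0259) and the Wnt target Axin2 fell by 0.44 (adjusted p = 0.00724), and Axin2 rose in HF-LF against HF mice (0.36, adjusted p = 0.0227, and 0.0568 without that sample). The stromal gene Pdgfra fell in HF mice by a fold change of 2.30 (adjusted p = 0.0445, and 0.107 without that sample). It was the 1 called of 6 stroma and muscle markers, all lower over both batches, of which 0 in batch 1 and 6 in batch 2 had an unadjusted p under 0.05, with 0 called by edgeR in either. Among the markers of epithelium, colonocytes, tuft cells, immune cells, endothelium, neurons and glia, small intestine, proximal colon and distal colon edgeR called 0 between HF and LF over both batches, with 1, 2, 0, 0, 0, 0, 1, 1 and 0 at an unadjusted p under 0.05. In batch 2 alone the colonocyte marker Slc37a2 was called lower (−0.61, adjusted p = 0.0424).

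The limits are those of bulk counts from 3 to 5 samples per group and batch. RNA levels say nothing of the amount or activity of a protein, and the cell types that carried each transcript were not separated. A difference under the minimum fold of 1.2 was not called whatever its precision. Batches were fitted as labelled, and if the same mouse stands in both, the fits over both batches count it more than once. Comparisons that share the HF samples are not independent of each other. The marker lists were not tested with DESeq2 or voom.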
